A study of Mus musculus with 4 samples.

Results

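The Dok and Frs docking proteins measured here were Dok1, Dok2, Dok3, Frs2 and Frs3, which made up 5 of the 84 targets of a mouse insulin signaling PCR array. They were chosen by name, as the members of both families on the array. The values came from 15 lungs in 4 groups, and the paralogs were compared in their level and in their response to the loss of p16 and to cigarette smoke (CS).

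Docking proteins have no enzymatic activity of their own. They sit at the membrane, are phosphorylated on tyrosine by activated receptors, and then hold SH2 domain proteins close to that receptor. Dok1 and Dok2 recruit RasGAP and restrain the Ras to ERK cascade, whereas Dok3 acts through SHIP1 and Grb2. These Dok proteins are best known as brakes on signaling in leukocytes. Frs2 and Frs3 are anchored to the membrane by a lipid and couple FGF and neurotrophin receptors to Grb2 and SHP2. Frs2 passes the signal on to Ras, while Frs3 is a close paralog with a narrower expression, best described in the nervous system. Both families bind receptors through a phosphotyrosine binding domain, as do the insulin receptor substrates.

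The p16-/- CS group held 4 lungs and the p16+/+ CS group 4 lungs, taken from mice that began smoke exposure at 8 weeks of age and were exposed for 16 weeks. The p16-/- room air (RA) group held 3 lungs and the p16+/+ RA group 4 lungs, from mice 24 weeks old. The p16-/- mice were p16Luc animals (B6.Cg-Cdkn2a tm3.1Nesh with the albino allele Tyr c-2J, strain source Nci), a germline reporter strain whose p16 promoter drives luciferase in place of working p16, and the p16+/+ mice were B6(Cg)-Tyrc-2J/J, so both carry an albino Tyr allele but are different strains. All mice were female per the methods, and each array was run on RNA of whole lung. The labels hold 1 record for each group, and the array columns were taken as separate lungs. In whole lung, fewer cells of a type and less RNA per cell cannot be told apart.

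The unit was the CT, the number of PCR cycles a product needs to reach the detection threshold. It runs on a log2 scale, and a CT that is 1 cycle earlier means about 1 doubling more cDNA. Levels are given as -ΔCT, the mean CT of the 5 reference genes (Actb, B2m, Gapdh, Gusb, Hsp90ab1) minus the CT of the gene, so that a higher value means more transcript. Every member was detected in every lung, with CTs between 24.18 and 33.15 cycles, below the limit of 35 cycles. The arrays of the genotypes stood apart as a whole: the median CT of the 84 targets lay between 26.48 and 27.75 cycles in p16-/- CS lungs against 28.19 to 31.71 cycles in p16+/+ CS lungs, and for RA animals between 27.27 and 27.90 cycles without p16 and between 29.43 and 30.77 cycles with it. After normalization the median difference over the 84 targets was still 1.46 on the log2 scale for p16-/- CS against p16+/+ CS lungs and 0.90 for p16-/- RA against p16+/+ RA lungs. The part of RNA input or quality in that shift was not tested. Cdkn2a is not a target of the array, so its loss could not be checked, and the array holds no defining marker of lung epithelium, endothelium or leukocytes. In 1 lung, p16+/+ RA lung 1, the CTs of Gusb and Hsp90ab1 were missing and its reference mean of 25.18 cycles was filled from the other 3 reference genes.

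The members' assays did not come up at the same cycle. In p16-/- CS lungs mean CTs were 25.51 for Dok3, 26.26 for Frs3, 26.72 for Frs2, 26.87 for Dok2 and 27.16 for Dok1. In p16+/+ CS lungs they were 26.33 for Frs3, 27.53 for Dok3, 29.37 for Dok1, 30.70 for Frs2 and 30.90 for Dok2. The 5 members thus lay within 1.64 cycles of each other in p16-/- CS lungs and within 4.57 cycles in p16+/+ CS lungs. In RA lungs the same range was 1.75 cycles in p16-/- lungs and 4.25 cycles in p16+/+ lungs. Dok3 came up earlier than both Dok1 and Dok2 in 15 of 15 lungs. Frs3 came up earlier than Frs2 in 14 of 15 lungs, the exception being p16-/- CS lung 4, where both lay at the same cycle within 0.01. In p16-/- lungs the order of neighbours held in 2 or 3 lungs of a group, and in all lungs of a group only for Frs3 before Frs2 in RA lungs. Dok2 and Frs2, at the late end in p16+/+ lungs, differed in mean by 0.20 cycles in p16+/+ CS lungs and 0.18 cycles in p16+/+ RA lungs, less than the spread between lungs. A CT difference between genes also holds the efficiency of each assay, so these orders are of assays and not of copies.

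Frs2, the broadly expressed docking protein of FGF receptors, was higher in p16-/- lungs under both exposures. Its -ΔCT was -2.35, -2.36 and -2.59 in the p16-/- RA group, compared with -5.75, -5.99, -5.35 and -5.56 in the p16+/+ RA group. The groups did not overlap, and lungs of 1 group lay within a narrow band. The means were -2.43 ± 0.14 (SD, n = 3) and -5.66 ± 0.27 (SD, n = 4), a difference of 3.23 on the log2 scale (SE 0.84), or 9.38-fold (limma adjusted p = 0.013; exact permutation p = 0.0286, the smallest these lungs allow). After smoke Frs2 stood at -3.74, -2.04, -2.80 and 0.82 in p16-/- CS lungs, against -6.04, -5.14, -4.45 and -5.54 in p16+/+ CS lungs. These groups did not overlap either, although p16-/- CS lung 4 lay far above the other 3. The difference was 3.35 (SE 0.78), or 10.2-fold (limma adjusted p = 0.0031; exact permutation p = 0.0286). It passed without either end of the p16-/- CS group, at 2.43 or 5.40-fold without lung 4 (limma adjusted p = 0.0035) and at 3.95 or 15.5-fold without lung 1 (adjusted p = 0.00090).

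Frs3, the paralog of narrower expression, did not pass the test. Its -ΔCT was -1.73, -1.86 and -1.83 in p16-/- RA lungs and -2.37, -0.90, -0.67 and -2.93 in p16+/+ RA lungs. The p16-/- lungs fell between the p16+/+ lungs, and the difference was -0.09 (95% interval -1.98 to 1.80, limma adjusted p = 0.99). In CS lungs Frs3 was at -2.90, -1.66, -2.18 and 0.82 in p16-/- animals and at -0.36, -0.71, -0.02 and -2.59 in p16+/+ animals. The groups overlapped, with a difference of -0.56 (95% interval -2.31 to 1.19, limma adjusted p = 0.611). The same p16-/- CS lung 4 had the highest -ΔCT of its group for Frs2 and Frs3, and also for Dok1, Dok2 and Dok3. Its reference mean of 26.32 cycles was the latest of the group, against 23.39 to 24.82 cycles in the other lungs. On raw CTs, Frs2 and Frs3 came up earliest in this lung, but Dok1, Dok2 and Dok3 latest.

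**Figure D1:**
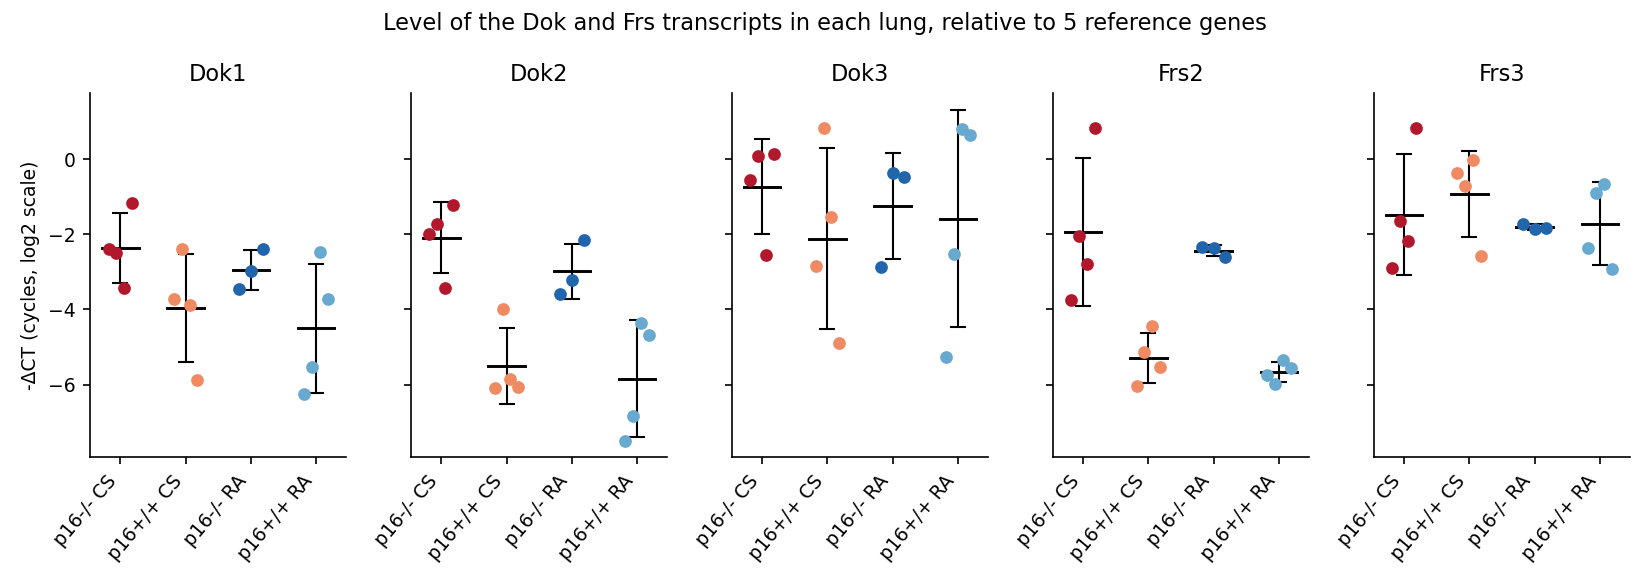
Level of each member in each lung as -ΔCT (cycles, log2 scale; higher means more transcript), by group. Points are lungs, horizontal bars group means and whiskers 1 SD; Dok2 and Frs2 lay higher in all p16-/- lungs than in any p16+/+ lung of the same exposure, and Dok1, Dok3 and Frs3 overlapped.

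The stretch before 1 annotated transcript start of each Frs gene is shown because these paralogs, whose assays sit side by side on the array, differed most clearly in response. Each is 250 bases long, ends at the base before that transcript start and comes from RefSeq (GRCm38.p6): Frs2 at chr10:117148475-117148724 on the minus strand and Frs3 at chr17:47694957-47695206 on the plus strand. The Frs2 window lies just outside the gene span given below, whereas the Frs3 window precedes an internal start and lies within the span of its gene, so the windows are not like for like. Capitals mark GGGCGG, the core of a GC box, on either strand.
Frs2: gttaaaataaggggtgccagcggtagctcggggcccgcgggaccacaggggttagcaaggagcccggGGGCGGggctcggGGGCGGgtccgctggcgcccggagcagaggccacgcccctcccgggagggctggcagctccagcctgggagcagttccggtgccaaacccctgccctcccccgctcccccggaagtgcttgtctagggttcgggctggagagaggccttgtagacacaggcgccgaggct
Frs3: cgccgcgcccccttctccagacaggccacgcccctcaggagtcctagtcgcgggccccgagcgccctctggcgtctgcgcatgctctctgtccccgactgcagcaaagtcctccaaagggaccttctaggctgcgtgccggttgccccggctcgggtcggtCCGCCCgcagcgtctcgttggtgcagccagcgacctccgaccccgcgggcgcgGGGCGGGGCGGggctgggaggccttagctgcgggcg
GGGCGG occurred 2 times in the Frs2 window and 3 times in the Frs3 window, where 2 of the copies overlap by 1 base. It is present in 32.7% of 32851 windows of this length in the table. The GC content was 71.6% in the Frs2 window and 74% in the Frs3 window, against a median of 52.4% over all windows. Neither window held CCAAT or TATAAA on either strand, which 33.8% and 12.4% of all windows do. RefSeq windows were matched for 3 of the 5 members, the third being Dok3, again before a start inside its gene span (GC content 59.2%, with no GGGCGG and 1 CCAAT). The genes lie apart in the genome (GRCm38.p6), Dok1 at chr6:83030932-83033495, Dok2 at chr14:70765889-70778494, Dok3 at chr13:55523231-55530345, Frs2 at chr10:117070127-117148474 and Frs3 at chr17:47687607-47704286.

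Among the Dok genes, Dok2, a RasGAP-binding brake of lymphoid and myeloid cells, was higher in p16-/- lungs. In CS lungs its -ΔCT was -2.0, -1.72, -3.43 and -1.21 in p16-/- animals, against -6.08, -3.98, -5.85 and -6.06 in p16+/+ animals. The groups did not overlap, the nearest lungs being those at -3.43 and -3.98. The difference was 3.40 (SE 0.80), or 10.6-fold (limma adjusted p = 0.0031; exact permutation p = 0.0286). In RA lungs Dok2 stood at -3.58, -3.22 and -2.16 in p16-/- animals, against -7.49, -6.84, -4.35 and -4.68 in p16+/+ animals. There was again no overlap, and the p16+/+ lungs fell into a lower and a higher pair. The difference was 2.85 (SE 0.86), or 7.20-fold, with limma adjusted p = 0.020 and exact permutation p = 0.0571. This RA call rested on single lungs: it was lost without p16+/+ RA lung 1 (2.30, adjusted p = 0.060) or lung 2 (2.50, 0.069), and without p16-/- RA lung 2 (2.97, 0.061) or lung 3 (2.43, 0.099).

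Dok1, the founding member of the family and also a RasGAP partner, moved in the same direction without passing the test. Its -ΔCT was -2.39, -2.49, -3.44 and -1.17 in p16-/- CS lungs and -3.72, -2.39, -3.87 and -5.88 in p16+/+ CS lungs, a difference of 1.59 (95% interval -0.27 to 3.45, limma adjusted p = 0.160). In RA lungs the values were -3.46, -2.99 and -2.40 in p16-/- animals and -6.26, -5.54, -2.48 and -3.73 in p16+/+ animals, a difference of 1.55 (95% interval -0.46 to 3.56, limma adjusted p = 0.237). The groups overlapped under both exposures. On raw CTs, which keep the shift of the whole array, Dok1 passed in CS lungs (limma adjusted p = 0.040) and RA lungs (0.045), again with overlap.

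Dok3, the member that signals without RasGAP, had the largest standard error of the members, 1.45 in RA lungs and 1.35 in CS lungs. In p16-/- RA lungs its -ΔCT was -2.87, -0.37 and -0.49, and in p16+/+ RA lungs -5.26, -2.52, 0.80 and 0.65. In CS lungs it was -0.56, 0.07, -2.56 and 0.13 in p16-/- animals and -2.85, 0.83, -1.55 and -4.90 in p16+/+ animals. The differences were 0.34 in RA lungs (95% interval -2.74 to 3.43, limma adjusted p = 0.952) and 1.39 in CS lungs (95% interval -1.47 to 4.24, adjusted p = 0.418). In p16+/+ RA lungs, lungs 1 and 2 were the low ones and lungs 3 and 4 the high ones for Dok1, Dok2 and Dok3 alike, while Frs2 in the same lungs spanned less than 1 cycle.

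In all, 2 of the 5 members passed the test as higher in p16-/- RA lungs, against 28.6% of the 84 targets, and the same 2, Dok2 and Frs2, passed in CS lungs, against 38.1% of the 84 targets. No member was lower, against 5.95% of targets in RA lungs and 1.19% in CS lungs. The median difference over the members was 1.55 in RA lungs, against 0.90 over all targets, and 1.59 in CS lungs, against 1.46 over all targets. The groups did not overlap for the same 2 members, as for 44% of targets in RA lungs and 39.3% in CS lungs, nor did their raw CTs, as for 47.6% and 44% of targets. With 5 members, these shares were close to those of the array.

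The paralogs were then compared within each lung, where the reference genes cancel out. The gap between Frs2 and Frs3, as the CT of Frs2 minus that of Frs3, was 0.84, 0.39, 0.62 and -0.01 cycles in p16-/- CS lungs, against 5.67, 4.43, 4.43 and 2.95 cycles in p16+/+ CS lungs. In RA lungs it was 0.62, 0.50 and 0.76 cycles in p16-/- animals, against 3.38, 5.09, 4.68 and 2.63 cycles in p16+/+ animals. No p16-/- lung came near a p16+/+ lung, and the largest gap in p16-/- lungs, 0.84 cycles, lay well below the smallest of the p16+/+ lungs, 2.63 cycles. Within an exposure, the groups also did not overlap for 32.2% of all 3486 pairs in CS lungs and 31.2% in RA lungs. Frs2 was thus higher relative to Frs3 in p16-/- lungs by 3.91 on the log2 scale in CS lungs (SE 0.69, limma adjusted p = 0.0018 over all 3486 pairs of targets) and by 3.32 in RA lungs (SE 0.74, adjusted p = 0.0066), with exact permutation p = 0.0286 each. The raw CT of Frs2 differed more than that of Frs3: it averaged 27.20 cycles in the p16-/- RA group and 31.37 in the p16+/+ RA group, whereas Frs3 averaged 26.57 cycles in p16-/- and 27.42 cycles in p16+/+ RA lungs.

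Of the 10 pairs of members, 3 differed in response in CS lungs and 2 in RA lungs, against 27.1% and 27.6% of all 3486 pairs. Beside the Frs pair, Dok2 was higher relative to Frs3 by 3.96 in p16-/- CS lungs (SE 0.97, limma adjusted p = 0.0098) and by 2.94 in p16-/- RA lungs (SE 1.05, adjusted p = 0.048). The gap between Dok2 and Frs3 did not overlap in CS lungs and overlapped in RA lungs, where it reached 1.86 cycles in p16-/- lungs and began at 1.75 cycles in p16+/+ lungs. The RA value was near the threshold, and leaving out any of 12 lungs took it past it (adjusted p between 0.051 and 0.178). Among p16+/+ RA lungs, leaving out lung 2 gave a difference of 2.33 (limma adjusted p = 0.141), and leaving out lung 4 gave 3.73 (adjusted p = 0.013). Frs2 and Dok2, in contrast, kept almost the same distance, with a difference in response of 0.05 in CS lungs (Dok2 minus Frs2, 95% interval -1.86 to 1.95) and -0.38 in RA lungs (95% interval -2.44 to 1.67). These intervals are wide and do not show that both genes respond alike.

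Within the Dok family, Dok1 and Dok2, which share RasGAP as partner, came up at nearly the same cycle in p16-/- lungs and apart in p16+/+ lungs. The CT of Dok1 minus that of Dok2 was 0.39, 0.77, 0.01 and -0.04 cycles in p16-/- CS lungs, against -2.36, -1.59, -1.98 and -0.18 cycles in p16+/+ CS lungs. In RA lungs it was -0.12, -0.24 and 0.24 cycles in p16-/- animals and -1.23, -1.30, -1.87 and -0.96 cycles in p16+/+ animals. Neither pair of groups overlapped, as for 32.2% of all pairs in CS lungs and 31.2% in RA lungs. Dok1 was lower relative to Dok2 by -1.81 in p16-/- CS lungs (SE 0.57, limma adjusted p = 0.030), a call that ended without p16+/+ CS lung 1 (-1.53, adjusted p = 0.102), lung 2 (-1.79, 0.062) or lung 3 (-1.66, 0.073) and without p16-/- CS lung 1 (-1.78, 0.057) or lung 2 (-1.65, 0.081). The RA difference of -1.30 did not pass (SE 0.62, adjusted p = 0.121). Dok2 relative to Dok3 differed by 2.02 in CS lungs (95% interval 0.16 to 3.87, adjusted p = 0.094) and by 2.50 in RA lungs (95% interval 0.50 to 4.51, adjusted p = 0.059), past the threshold in neither. It passed in CS lungs without p16+/+ CS lung 4 (2.76, adjusted p = 0.027), and in RA lungs without p16+/+ RA lung 1 (3.18, adjusted p = 0.020) or, through the shared estimate of the spread, without p16+/+ CS lung 4 (2.50, 0.037). For Dok1 relative to Dok3 the differences were 0.20 in CS lungs and 1.21 in RA lungs, with limma adjusted p of 0.862 and 0.310.

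**Figure D2:**
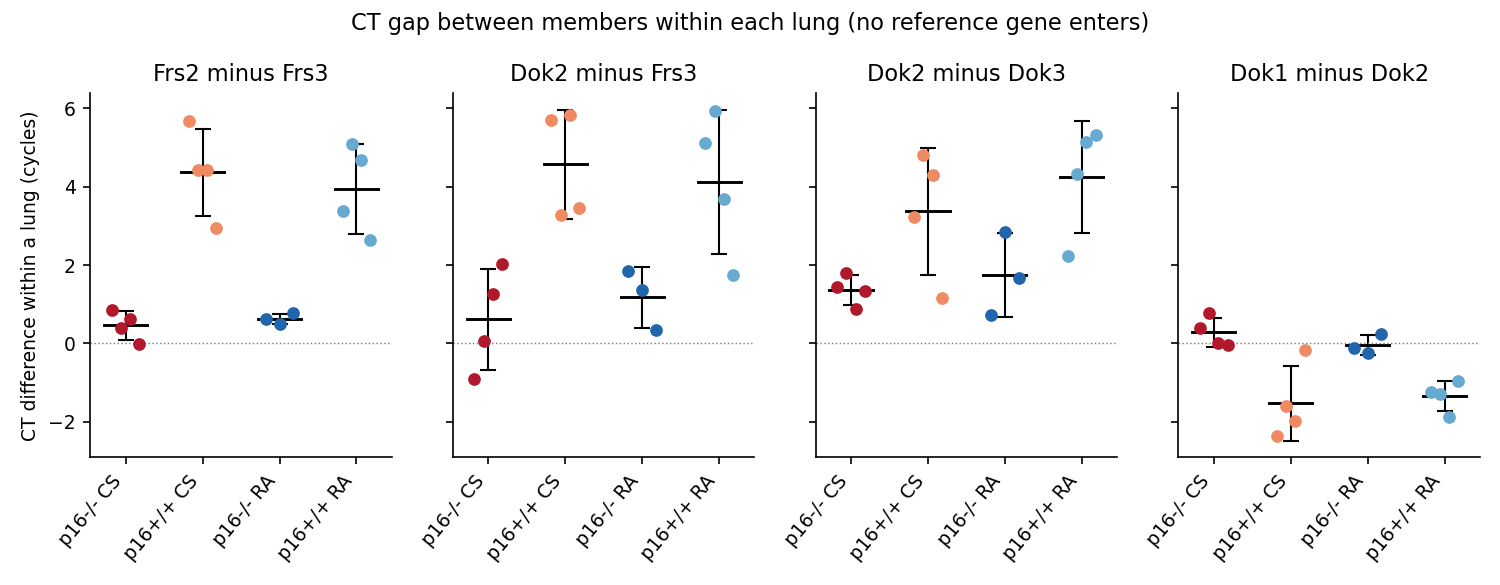
CT difference between named members within each lung (cycles; above 0, the first gene comes up later), by group. Points are lungs, horizontal bars group means and whiskers 1 SD; the gap between Frs2 and Frs3 was at most 0.84 cycles in p16-/- lungs and at least 2.63 cycles in p16+/+ lungs.

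**Figure D3:**
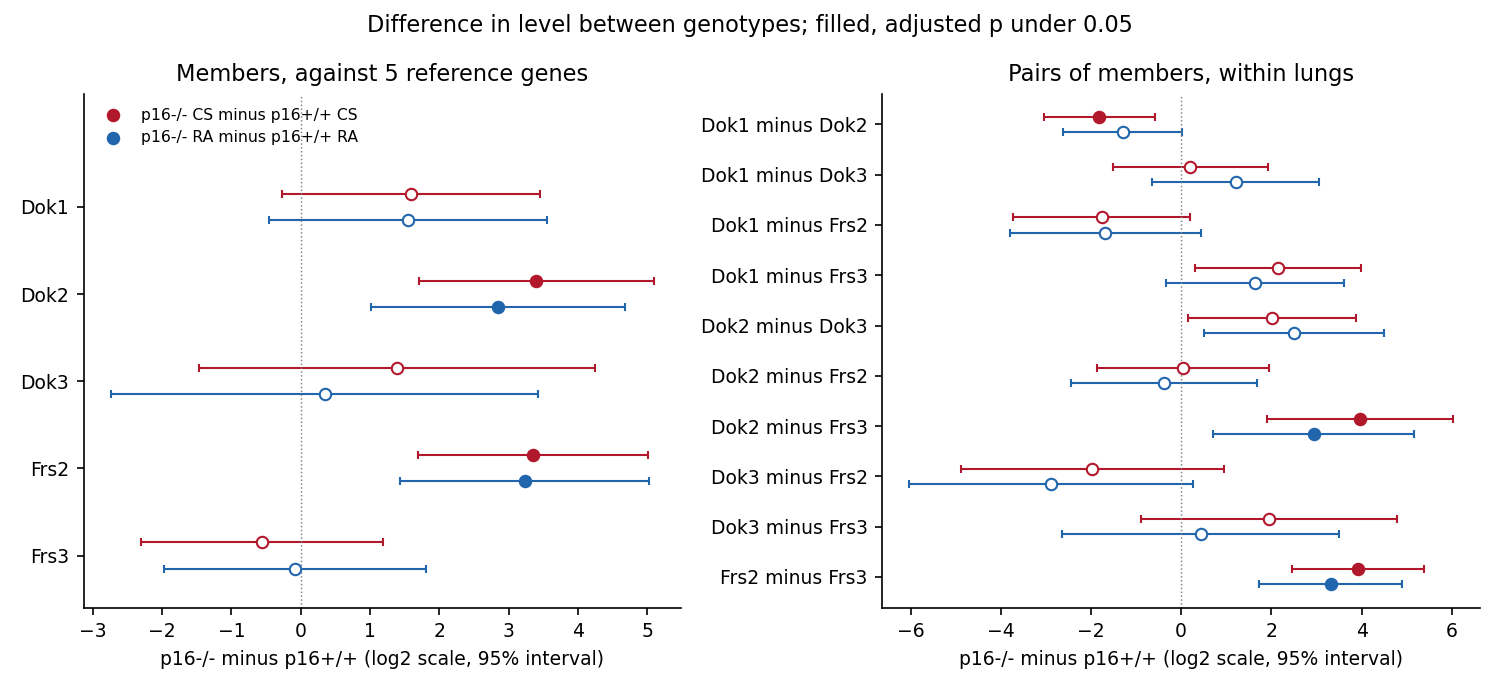
Difference in level between p16-/- and p16+/+ lungs on the log2 scale, for the members against the reference genes (left) and for the pairs of members within lungs (right), in CS lungs (red) and RA lungs (blue). Points are limma estimates with 95% intervals and filled points have an adjusted p under 0.05; Dok2, Frs2 and the 2 pairs that set each of them against Frs3 were filled under both exposures, and Dok1 minus Dok2 in CS lungs only.

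Smoke itself moved no member past the test in either genotype, and 0 of the 84 targets passed in either. In p16-/- lungs the difference between CS and RA was 0.90 for Dok2, 0.58 for Dok1, 0.51 for Dok3, 0.49 for Frs2 and 0.33 for Frs3. The smallest unadjusted limma p among them was 0.314, for Dok2, whose interval ran from -0.93 to 2.73. In p16+/+ lungs the difference was 0.80 for Frs3, 0.54 for Dok1, 0.37 for Frs2, 0.35 for Dok2 and -0.53 for Dok3, and the smallest unadjusted limma p was 0.349, for Frs3. Over all targets limma gave an unadjusted p under 0.05 for 1 target in p16-/- lungs and for 0 in p16+/+ lungs, and the exact permutation test for 0 in both. The smoke effect did not differ detectably between genotypes: the difference was largest for Dok3, 1.04 with an interval from -3.16 to 5.25 (limma adjusted p = 0.987). None of the 20 pair comparisons for smoke passed, against 0 of 3486 pairs in each genotype, and the level of Frs2 relative to Frs3 differed by 0.17 between CS and RA in p16-/- lungs and by -0.43 in p16+/+ lungs. The intervals span more than 1 doubling in each direction for several members, so differences of that size were not detectable with these lungs.

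The size of the genotype difference went with how late a target came up in p16+/+ lungs. Ranking targets by their CT in the p16+/+ lungs of the other exposure, so that the level and the difference share no lung, the 37 targets over 30 cycles in p16+/+ CS lungs had a median difference of 2.13 in RA lungs, and 19 of them passed as higher. Dok2 and Frs2 were among these. The 47 targets at 30 cycles or under, with Dok1, Dok3 and Frs3, had a median of 0.03 and 5 passed. In CS lungs, ranked by p16+/+ RA lungs, the median was 2.55 for 41 late targets, with Dok1, Dok2 and Frs2, and 0.90 for 43 early targets, with Dok3 and Frs3. The same held for pairs: of the 1739 pairs with 1 target on each side of 30 cycles in p16+/+ CS lungs, as for Frs2 with Frs3, 37.4% differed in response in RA lungs, against 20.4% of the pairs with both over 30 cycles and 16.3% of those with both at 30 cycles or under. A larger difference than that of Frs2 and Frs3 was seen in 22.6% of all pairs in RA lungs and in 11.4% in CS lungs. Late targets thus differed more between genotypes on the whole array, and the part of the level in the paralogs' difference was not tested.

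**Figure D4:**
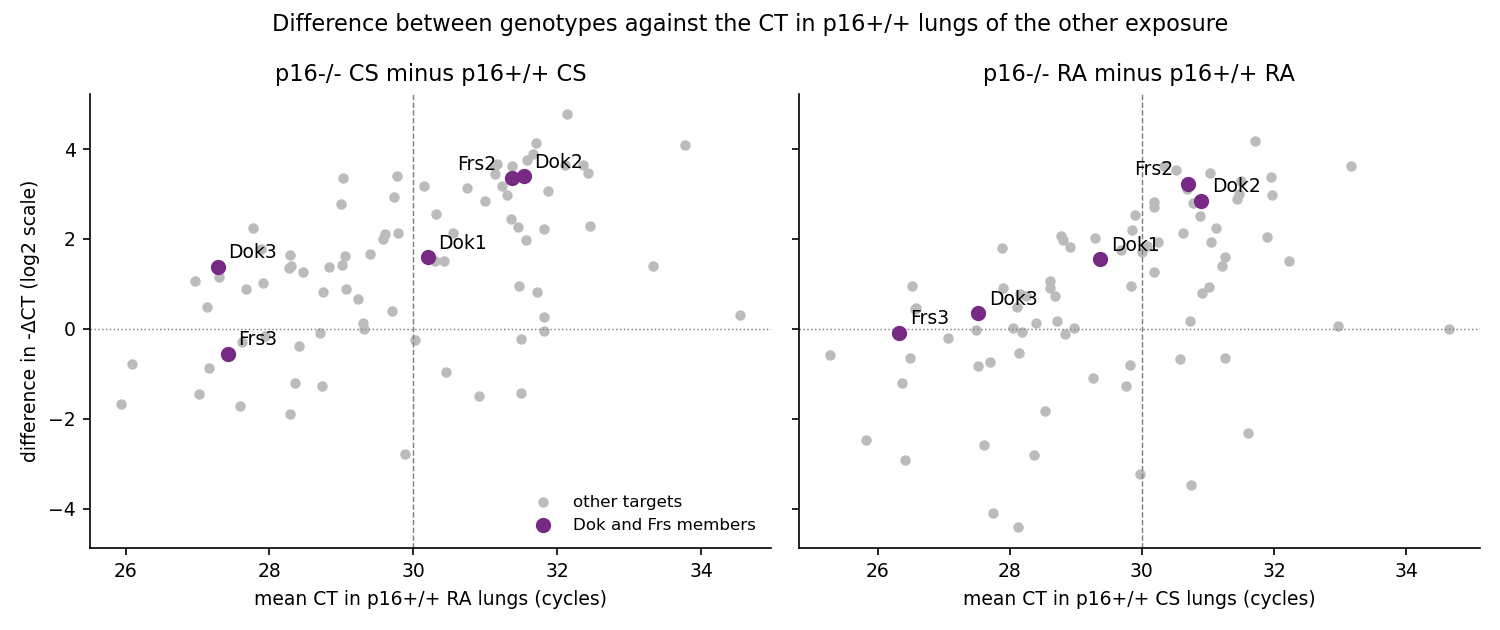
Difference in -ΔCT between p16-/- and p16+/+ lungs (log2 scale) of each of the 84 targets against its mean CT in p16+/+ lungs of the other exposure (cycles), for CS (left) and RA (right). Each point is a target, the members are in purple and the dashed line marks 30 cycles; Dok2 and Frs2 lie among the late targets, most of which differ upward, and Frs3 and Dok3 among the early ones.

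Which reference gene was used decided the direction of several members. With B2m alone, Frs2 differed by 4.91 and Dok2 by 4.53 in RA lungs, and Dok1 passed as well at 3.23. With Hsp90ab1 alone, which leaves out p16+/+ RA lung 1, the values were 5.01 for Frs2, 4.11 for Dok2 and 2.78 for Dok1. With Gapdh alone all members shifted down by the same amount, since a reference enters each member alike, so their order could not change. The differences became -0.30 for Frs2, -0.68 for Dok2, -1.98 for Dok1, -3.18 for Dok3 and -3.62 for Frs3, and Dok3 and Frs3 passed as lower in p16-/- RA lungs. In CS lungs with Gapdh alone Frs2 was at 0.26 and Dok2 at 0.31, neither past the test, and Frs3 passed as lower at -3.65. With the median of the 84 targets as reference, Frs2 passed in RA lungs and Dok2 did not (1.39, limma adjusted p = 0.070), while in CS lungs Frs3 passed as lower at -2.55 and no member passed as higher. Hence the members called, and the direction of their calls, depended on the reference, whereas no reference gene enters the separation of Frs2 and Frs3.

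**Figure D5:**
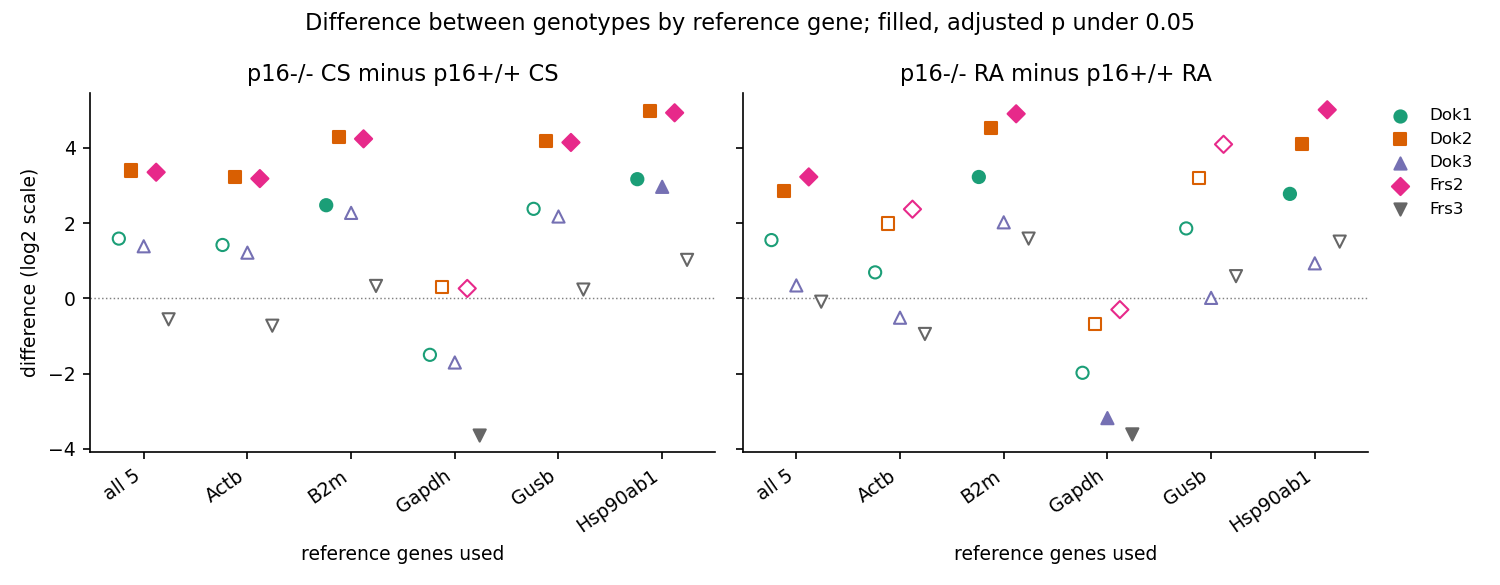
Difference between p16-/- and p16+/+ lungs on the log2 scale for each member, against all 5 reference genes and against each one alone, for CS (left) and RA (right). Each symbol is a member and filled symbols have a limma adjusted p under 0.05. Gapdh alone lowers all members by the same amount, which by construction keeps their order.

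The members are neighbours on the plate, with Dok1, Dok2 and Dok3 next to each other in 1 row and Frs2 and Frs3 next to each other in the row below. In RA lungs the 6 other targets in the plate column of Frs2 had a median difference of 1.10, and those in the column of Frs3 one of 2.46. Frs2, at 3.23, lay above the median of its column but below the highest other target there, at 3.53. Frs3, at -0.09, lay below every other target of its column. When a median effect of each plate column was removed, Frs2 differed by 2.24 (limma adjusted p = 0.082) and Dok2 by 2.67 (adjusted p = 0.053) in RA lungs, and both calls in RA lungs were lost. The difference between Frs2 and Frs3 passed with and without that correction.

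Other docking proteins, adaptors and genes from Ras to ERK on the array were counted next, from lists of the pathway. Of the other docking proteins, Irs1, the insulin receptor substrate first described, was higher in p16-/- lungs by 2.54 in RA lungs and by 3.17 in CS lungs (limma adjusted p = 0.023 and 0.0031), while Irs2 and Gab1 passed in neither, so 1 of 3 was higher under each exposure, near the 28.6% of all targets in RA lungs and 38.1% in CS lungs. That Irs1 was called and Irs2 was not is no test of a difference between these paralogs. Of the 5 adaptors and exchange factors listed, 2 were higher under each exposure, again near those shares. They were Grb10, an adaptor that restrains the insulin receptor, at 2.88 in RA lungs and 4.14 in CS lungs, and Nck1, an adaptor to the actin machinery, at 2.52 and 3.45. Grb2, the adaptor that Frs2 and Dok3 bind, did not pass, at 0.72 in RA lungs and 1.62 in CS lungs (adjusted p = 0.699 and 0.198), nor did Shc1 and Sos1. Further down, among the genes from Ras to ERK, Hras, a Ras GTPase, was lower in p16-/- RA lungs, by -2.92 (limma adjusted p = 0.037), and stood at -1.44 in CS lungs (adjusted p = 0.239).

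The members' patterns over the 15 lungs were set against every other target, with each CT taken relative to the lung's median target. Frs3 ran closest to Cebpa (r = 0.97) and G6pc (0.93), Dok3 to Dusp14 (0.96) and Gpd1 (0.94), and Dok2 to Akt1 (0.90) and Irs1 (0.87). Frs2 ran closest to Acaca (0.87) and Pklr (0.82), and Dok1 to Gab1 (0.83) and G6pc2 (0.75). Some of these partners share a plate column with the member: Acaca and Pklr with Frs2, Akt1 with Dok2 and G6pc2 with Dok1. The part of plate position in these likenesses was not tested. With group means removed, Acaca and Pklr stood at 0.63 and 0.51 with Frs2 and were no longer its 2 closest targets, while Akt1 stayed closest to Dok2 at 0.84. Among the members themselves Dok1 and Dok3 had the highest r, 0.73, and Dok2 and Frs3 the lowest, -0.78, while Frs2 and Frs3 stood at -0.42. These signs depended on the scaling. On -ΔCT against the reference genes no pair of members was negative: Dok1 and Dok2 were highest at 0.88, Dok2 and Frs3 were at 0.04, Frs2 and Frs3 at 0.24, and Frs2 gave 0.67 with Dok1, 0.83 with Dok2 and 0.33 with Dok3. Relative to the median target with the group means removed, Dok1, Dok2 and Dok3 gave r between 0.71 and 0.79 with one another, Frs2 and Frs3 gave 0.47, and Frs2 gave -0.55 with Dok1, -0.61 with Dok2 and -0.61 with Dok3. These are descriptions over lungs that share the genotype difference.

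Markers of fat cells, which whole lung can carry, moved with the groups in part. Their summed level relative to the reference genes lay between 0.31 and 1.89 in p16-/- CS lungs against 0.35 to 2.05 in p16+/+ CS lungs. For RA animals it lay between 0.18 and 0.33 without p16 and between 0.63 and 2.02 with it. Of the 4 markers, Retn, the adipokine resistin, was lower in p16-/- RA lungs by -2.47 and Cfd, adipsin, was higher in p16-/- CS lungs by 3.89, while Lep and Ucp1 passed in neither and none of the 4 was absent. The sum weighs each marker by its level, and Retn had the highest mean level of the 4 in each group. In p16+/+ RA lungs its mean -ΔCT was -0.24, against -4.32 for Lep, -4.76 for Ucp1 and -5.97 for Cfd. The RA ranges of the sum thus followed mostly Retn and do not measure the content of fat cells. Without passing, Cfd was higher in p16-/- RA lungs, at a mean of -4.46, while Lep and Ucp1 were lower. The part of fat cells in the differences of Dok2 and Frs2 was not tested.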

How the data were processed

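Total RNA of whole lung was treated with DNase I and run on a QIAGEN PAMM030 RT2 Profiler array with SYBR Green, per the labels. The authors deposited 1 table of CT values, unnormalized and on a log2 scale, with 15 lung columns and 4 columns that equal the mean of a group and were left out. A second table holds the authors' own fold changes and p-values and was not used. AA in the column names was taken as room air. There is 1 sample record a group. The study gives its unit as lungs, with more lungs a group than the 3 or 4 lung columns used here, and no source ties a column to an animal, so p-values measure the spread between columns, which may be technical. The rows of Gusb and Hsp90ab1 were 1 cell short and were moved by 1 place; the lung that lacks them was found by checking the 4 placements against a per-lung table of the study, and its reference mean was filled from the deposited CTs. CTs that were blank (4 of the targets) or over 35 (14) were set to 35.

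Levels (-ΔCT) were tested with limma 3.58.1 in R 4.3.3, 4 groups in one fit with 11 residual degrees of freedom, adjusted by Benjamini-Hochberg over 84 targets, and differences between genes over all 3486 pairs, at 0.05. Exact permutation p-values (scipy 1.17.1) are two-sided on the absolute difference of means, with a smallest value of 0.0286; doubling the smaller tail would give no less than 0.0571 for 3 lungs against 4. CT data hold no read depth, so the number of lungs limits the precision. The scripts were tested on simulated data. Members and lists were chosen with earlier results of these data known. All 5 members were named; of the lists, those genes past the threshold in a genotype comparison, and the 2 targets of highest r for each member. One gene of the lists is not reported here. Alternatives covered the reference genes, the CT limit, single lungs, the groups fitted, plate columns and the test, including the methods' t-test.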

Additional observations from a re-analysis of the deposited data

Results flagged for a closer look

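Of 45 sets of 4 values, each from the lungs of 1 group, 1 held a lung far from the others. Chance flags about 5% of such sets, but the sets share lungs and are not separate tests. The flagged lung was p16+/+ CS lung 2 for Dok2. Its -ΔCT of -3.98 lay above the other 3 lungs of the group, which stood between -6.08 and -5.85. Without that lung Dok2 still passed the test in CS lungs.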

How the results depend on the processing

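The difference in response between Frs2 and Frs3 kept its direction and its side of the threshold under all 23 alternatives in CS lungs. In RA lungs it did so under 22 of 23, with values between 1.95 and 3.76. The methods' t-test after adjustment ended the call there. Many of these alternatives leave the difference itself unchanged, so that only its p-value could move. Among these were leaving out a lung of the other exposure, a CT limit of 40 or none, and another test. The count of members called in RA lungs, 2 at first, ran from 1 to 2 when single lungs were left out. It was 3 with no reference, with B2m alone and with Hsp90ab1 alone, where Dok1 passed as well. It was 1 without B2m, without Hsp90ab1, with Actb, B2m and Gapdh, with the median target as reference, with the methods' t-test adjusted and with the exact permutation test, and 0 with Actb alone, with Gusb alone, with a CT limit of 30 or with plate column effects removed. Gapdh alone turned it to 2 members lower, Dok3 at -3.18 and Frs3 at -3.62, while Dok2 at -0.68 and Frs2 at -0.30 did not pass. In CS lungs the count of 2 stayed at 2 without any single lung. It became 1 lower with Gapdh alone and with the median target, and 1 with the methods' t-test adjusted. It was 3 with no reference and with B2m alone, where Dok1 passed as well, and 4 with Hsp90ab1 alone. For pairs of members in RA lungs the count of 2 ran from 1 to 3 without single lungs, and was 1 with a CT limit of 30 or 40 and with only the 2 groups compared, 0 with the methods' t-test adjusted, 5 with the group-mean columns counted as lungs and 6 with plate columns removed. In CS lungs the count of 3 ran from 2 to 4 without single lungs, and was 6 and 7 in the last 2 settings. Of the 10 closest partners of the members, 6 were shared with group means removed. Smoke gave 0 calls under each alternative. The causes were not tested. Of 42 settings, 7 were chosen after seeing the data, the single reference genes other than Gapdh and the placement of the missing reference CTs in another lung. No paired analysis was possible because 1 sample record stands for each group and the labels give no replicate numbers that pair lungs.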
